A study of Mus musculus with 2 samples.

Results

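The genes described here are the cadherin superfamily outside the clustered protocadherins: the numbered cadherins (Cdh), the numbered protocadherins (Pcdh), Fat1 to Fat4, Dchs1 and Celsr1 to Celsr3. The rule for membership is the gene symbol, and 44 of the 22054 gene symbols used from the deposited tables fitted. Dchs2, which the choice also names, was not among the gene symbols used. All 66 transcript rows of these genes had the status OK in both libraries.

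RNA came from molar mesenchyme taken by laser capture from the lower jaw of mouse embryos at embryonic day 14.5, on a mixed strain background. There were 2 groups of 1 library each (n = 1): controls with 1 mutant Osr2 allele (Osr2+/-) and mutants with none intact (Osr2-/-), so the controls carry the allele too. Per the design text, tissue of 3 pairs of controls and mutants was pooled before RNA was extracted. The sources used here give neither the deleted part of Osr2 nor the sex of the embryos. By their file names the 2 libraries came from separate sequencing lanes; effects of lane and of genotype cannot be told apart. The series title calls the controls wild type, against the sample labels. With 1 library a group there is no test between genotypes, and every difference below describes these 2 pools.

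Cadherins are transmembrane proteins that hold cells together through calcium-dependent extracellular repeats. Classical cadherins bind catenins inside the cell, which link them to actin; type I members such as E- and N-cadherin and type II members such as cadherin-11 sort cells into tissues. The delta protocadherins adhere weakly and act in cell movement and neural wiring. The giant cadherins Fat4 and Dchs1 bind each other between neighbouring cells, and Celsr proteins carry the core signal of planar cell polarity. In a tooth germ, E-cadherin and P-cadherin mark the epithelium, while the mesenchyme carries N-cadherin and cadherin-11.

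Levels are the authors' RPKM (reads scaled to transcript length and to library depth), which allow genes of different length to be set side by side. Brackets after a level or fold give its 95% counting interval, computed from approximate read numbers. Such an interval covers only the counting error of independent reads, and it says nothing of the spread between embryos. Amplified reads are not independent molecules, so it can be too narrow even for counting error. Where values stand in pairs, the control comes first, and a fold or ratio is mutant over control unless called lower. A gene counted as tested, that is compared, when it reached 1 RPKM in at least 1 library. The mutant library was 6.38 times as deep, with about 34.3 M mapped reads against 5.38 M for the control. Osr2 itself measured 38.7 RPKM in the control pool against 9.16 RPKM in the mutant pool, 4.23-fold lower (3.69 to 4.84), the direction the labels give.

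The mesenchymal identity of both samples fitted their markers, with traces of other tissues. All 12 mesenchyme markers were tested, and they summed to 628 RPKM in the control pool against 530.7 RPKM in the mutant pool, with a median log2 ratio of -0.19. Epithelial markers summed to 52.2 and 71.5 RPKM (18 of 19 listed, 13 tested, median log2 ratio 0.40) and bone markers to 16.8 and 49.5 RPKM (8 listed, 5 tested). Endothelial markers summed to 33.5 and 26.3 RPKM (14 listed, 10 tested, median -0.15), among them Pecam1 at 4.53 and 3.91 RPKM and Kdr at 3.55 and 3.19 RPKM. All 5 tested bone markers passed 1.5-fold toward the mutant pool (background 2.55%). Of these, Sp7, Ibsp and Ifitm5 reached 1 RPKM only in the mutant pool, so the filter set their direction. Runx2, at 13.4 and 24.7 RPKM, and Alpl, at 2.22 and 6.51 RPKM, reached it in both. Cartilage markers summed to 11.1 and 15.9 RPKM and muscle markers to 1.91 and 3.17 RPKM. The muscle factors Myod1 and Myog were listed at 0 for the control pool and had 0.0478 and 0.31 RPKM in the mutant pool. Of the nerve and glia markers 3 were tested, all above 0 in log2 ratio and 2 with an interval above 1 (background 7.84%): the neurofilament genes Nefl, at 2.03 and 4.43 RPKM, and Nefm, at 1.21 and 1.98 RPKM. Below the limit of 1 RPKM, Erbb3 was at 0.121 and 0.453 RPKM and Sox10, a factor of glia and neural crest, at 0.178 and 0.167 RPKM. In pooled tissue, fewer cells of a type and less RNA per cell cannot be told apart.

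Most cadherin superfamily genes that were expressed were modestly lower in the mutant library, and none had a counting interval above 1. Of 44 members, 23 were tested; 20 of these lay below 0 in log2 of (mutant RPKM + 1)/(control RPKM + 1), against 57.5% of 9779 genes tested. The median log2 ratio was -0.21 for the tested members and -0.05 for all genes. A counting interval of the fold lay below 1 for 13 of the 23 (background 15.9%) and above 1 for none (background 7.84%). Only 3, namely Cdh12, Pcdh9 and Cdh29, were at least 1.5-fold lower on the RPKM + 1 scale (background 3.57%), and none was 1.5-fold higher (2.55%). Of these 3, Cdh29 reached 1 RPKM only in the control library, so the filter set its direction. Members that reached 1 RPKM in only 1 library had to differ, so the 17 that reached it in both were also counted. Of these 17, 15 lay below 0, with a median of -0.19, and 10 had an interval below 1. At least 1.5-fold lower were 2 of the 17, Cdh12 and Pcdh9. Of the 8768 genes at 1 RPKM or more in both libraries, 57.7% lay below 0, with a median of -0.04. An interval below 1 was found for 14.7% of them, and 2.18% were at least 1.5-fold lower.

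**Figure D1:**
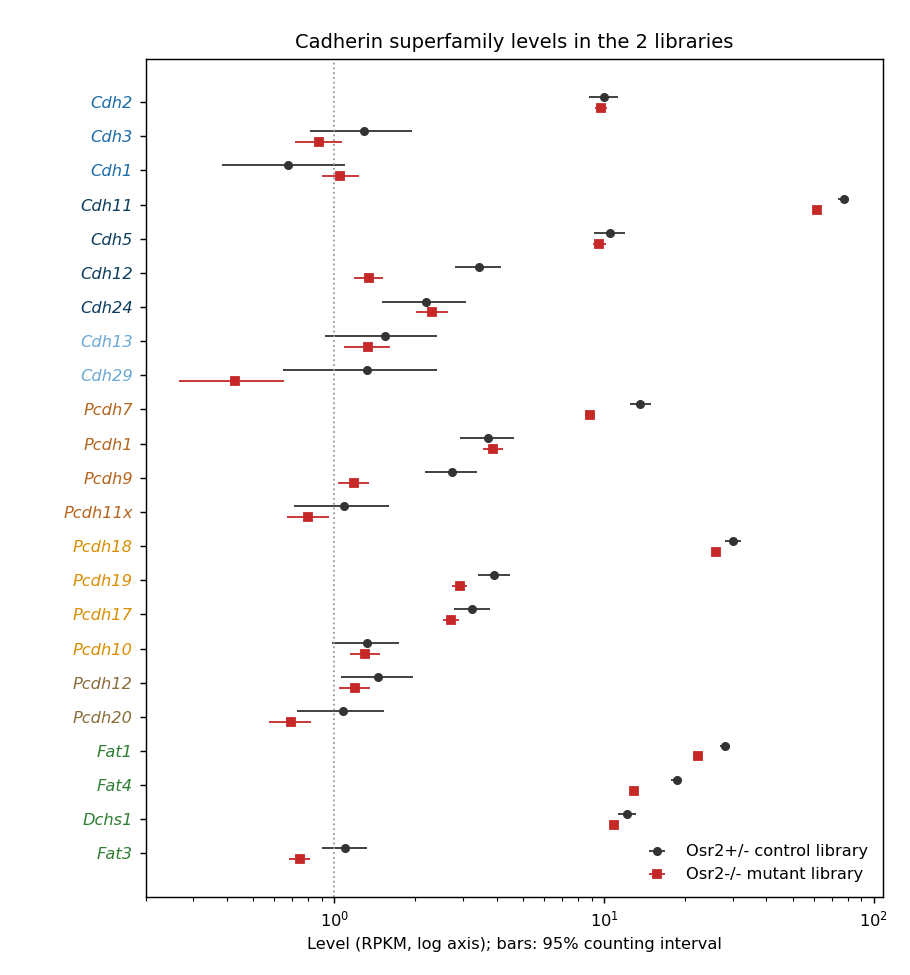
Level of each tested member in the control library (black circles) and the mutant library (red squares) in RPKM on a log axis, with 95% counting intervals as bars; names are coloured by family. Cdh11 stands highest in both libraries at 77.4 and 61.6 RPKM, and the dotted line marks 1 RPKM.

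The expressed set was dominated by a few genes, and their order was nearly the same in both pools. Summed over all 44 members, the level was 234.1 RPKM in the control pool against 188.3 RPKM in the mutant pool, 1.24-fold lower. Cdh11 alone made up 33.1% and 32.7% of these sums, and together with Pcdh18, Fat1 and Fat4 it made up 65.9% and 65.3%. These 4 kept ranks 1 to 4 in both libraries. Behind them, Pcdh7 moved from rank 5 in the control to rank 8 in the mutant, passed by Dchs1, Cdh2 and Cdh5. Across the 23 tested members, log2(RPKM + 1) correlated between the libraries with a Pearson r of 0.98, against 0.96 over all genes tested, a description over genes and not over samples.

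For 4 members on which the results turn, the 250 bases before the RefSeq start (build GRCm38.p6, 5′ to 3′ on the gene's strand) are shown and were searched for 2 short motifs. Cdh12 and Pcdh9 had the largest folds among members with more than 50 control reads, Fat4 is the most abundant member that was more than 1.4-fold lower, and Pcdh17 is shown as a member with a match. Capitals mark a match to GGGCGG, the core of the GC box bound by Sp1-type factors, on either strand (here read as CCGCCC).
The windows are chr15:21111202-21111451 on the plus strand (Cdh12), chr14:93890680-93890929 on the minus strand (Pcdh9), chr3:38886690-38886939 on the plus strand (Fat4) and chr14:84443313-84443562 on the plus strand (Pcdh17).
Cdh12: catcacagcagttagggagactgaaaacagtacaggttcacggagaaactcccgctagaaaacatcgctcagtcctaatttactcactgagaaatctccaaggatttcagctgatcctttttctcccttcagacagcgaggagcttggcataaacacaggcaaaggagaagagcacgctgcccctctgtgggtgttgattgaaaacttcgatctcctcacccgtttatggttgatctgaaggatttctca
Pcdh9: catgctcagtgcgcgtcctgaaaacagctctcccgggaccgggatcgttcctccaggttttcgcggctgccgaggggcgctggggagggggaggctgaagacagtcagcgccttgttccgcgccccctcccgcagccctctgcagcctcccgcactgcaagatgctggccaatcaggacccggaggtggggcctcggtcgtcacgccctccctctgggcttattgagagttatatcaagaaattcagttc
Fat4: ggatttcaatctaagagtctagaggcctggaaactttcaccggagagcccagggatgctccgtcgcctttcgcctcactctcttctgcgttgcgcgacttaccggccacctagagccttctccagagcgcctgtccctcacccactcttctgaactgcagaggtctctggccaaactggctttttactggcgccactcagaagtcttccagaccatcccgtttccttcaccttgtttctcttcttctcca
Pcdh17: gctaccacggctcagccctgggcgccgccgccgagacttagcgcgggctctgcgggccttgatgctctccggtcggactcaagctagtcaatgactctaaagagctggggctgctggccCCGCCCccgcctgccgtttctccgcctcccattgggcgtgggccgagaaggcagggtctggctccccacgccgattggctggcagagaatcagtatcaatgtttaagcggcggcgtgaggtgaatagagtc
The GC content of these windows was 46.8% for Cdh12, 63.6% for Pcdh9, 54.8% for Fat4 and 64.8% for Pcdh17. Of the members, 28 matched the RefSeq promoter table by symbol, 12 of them tested. GGGCGG was present in 10 of the 28 windows, or 5 of the 12, and in 32.9% of 27025 windows of all genes. CAGTAGC, letters bound by Odd-skipped zinc fingers such as Osr2, or its reverse complement was present in 1 of the 28, that of Fat3, and in 3.04% of all windows. The motifs do not overlap each other, and a match is a string of letters and not a measured binding site.

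Among the classical cadherins, the 2 that mesenchyme is known for differed in how far apart the libraries were. Cdh11, cadherin-11 or OB-cadherin, on mm9 chromosome 8 from 105156895 to 105309011, measured 77.4 RPKM in the control pool (73.8 to 81.1) and 61.6 RPKM in the mutant pool (60.4 to 62.9). It was 1.26-fold lower (1.19 to 1.32), a log2 ratio of -0.32. Cdh2, which encodes N-cadherin, was at 9.98 RPKM (8.78 to 11.3) and 9.77 RPKM (9.29 to 10.3), a ratio of 0.98 (0.86 to 1.12). The Cdh2 levels overlapped within counting error, and those of Cdh11 did not. The ratio of the Cdh11 level to the Cdh2 level was 7.76 in the control pool and 6.31 in the mutant pool. Under a TPM scale the log2 ratio of Cdh2 changed sign, as it did when log2 ratios were centred on genes of like transcript length.

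Of the epithelial cadherins, Cdh1 was at the higher level in the mutant and Cdh3 in the control, both near 1 RPKM. Cdh1, E-cadherin, measured 0.673 RPKM in the control pool (0.384 to 1.09, about 16 reads) against 1.05 RPKM in the mutant pool (0.897 to 1.23), a ratio of 1.57 (0.94 to 2.81). Cdh3, P-cadherin, was at 1.29 RPKM (0.81 to 1.94) and 0.878 RPKM (0.712 to 1.07), a ratio of 0.68 (0.43 to 1.13). Both intervals hold 1, so neither difference exceeds counting error. The 2 genes are neighbours on chromosome 8 with 46460 bases between them, Cdh3 from 109034791 to 109080808 and Cdh1 from 109127268 to 109194146. Epithelial markers were higher in the mutant pool, with 8 of 13 having an interval above 1 (background 7.84%), among them Krt17 at 1.48 and 4.63 RPKM. Of these 8, Krt18 and Grhl2 reached 1 RPKM only in the mutant pool, so the filter set their direction. The part of epithelial content in the level of Cdh1 was not tested.

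Cdh5, VE-cadherin of endothelial junctions, was second to Cdh11 among the numbered cadherins of the control pool. It measured 10.5 RPKM in the control pool (9.19 to 11.98) and 9.62 RPKM in the mutant pool (9.11 to 10.2), a ratio of 0.91 (0.79 to 1.06). Pcdh12, a protocadherin also known from endothelium, was at 1.45 and 1.19 RPKM, with a fold of 0.82 (0.59 to 1.16). Neither gene differed beyond counting error, and the median fold of the endothelial markers was 0.87. Cdh24, a further type II cadherin, was at 2.19 and 2.30 RPKM (about 32 control reads), with a fold of 1.05 (0.72 to 1.58). Cdh13, T-cadherin, which is held by a lipid anchor and has no cytoplasmic tail, was at 1.54 and 1.33 RPKM, with a fold of 0.86 (0.53 to 1.5).

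Cdh12 had the largest separation of the 2 libraries among the well-covered members. This type II cadherin, known from the nervous system, measured 3.43 RPKM in the control pool (2.80 to 4.15, about 104 reads) against 1.34 RPKM in the mutant pool (1.18 to 1.52, about 259 reads). It was 2.55-fold lower (2.01 to 3.22), a log2 ratio of -0.92. Its fold interval, as mutant over control, ended at 0.50, below the start of that of Cdh11 at 0.76. Its locus is chromosome 15, 21041207 to 21519288, in a row of type II cadherins with Cdh6, Cdh9, Cdh10 and Cdh18. The other 4 stayed below 1 RPKM in both pools. Cdh10 was at 0.30 and 0.434 RPKM (about 5.5 control reads), Cdh18 at 0.239 and 0.199 RPKM and Cdh9 at 0.193 and 0.0313 RPKM. Cdh6 was listed at 0 for the control pool against 0.228 RPKM in the mutant pool; 3 control reads would have given 0.212 RPKM. Cdh12 thus stood apart in level from its neighbours in both pools. Osr2 is on the same chromosome, 13.7 Mb beyond Cdh12.

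**Figure D2:**
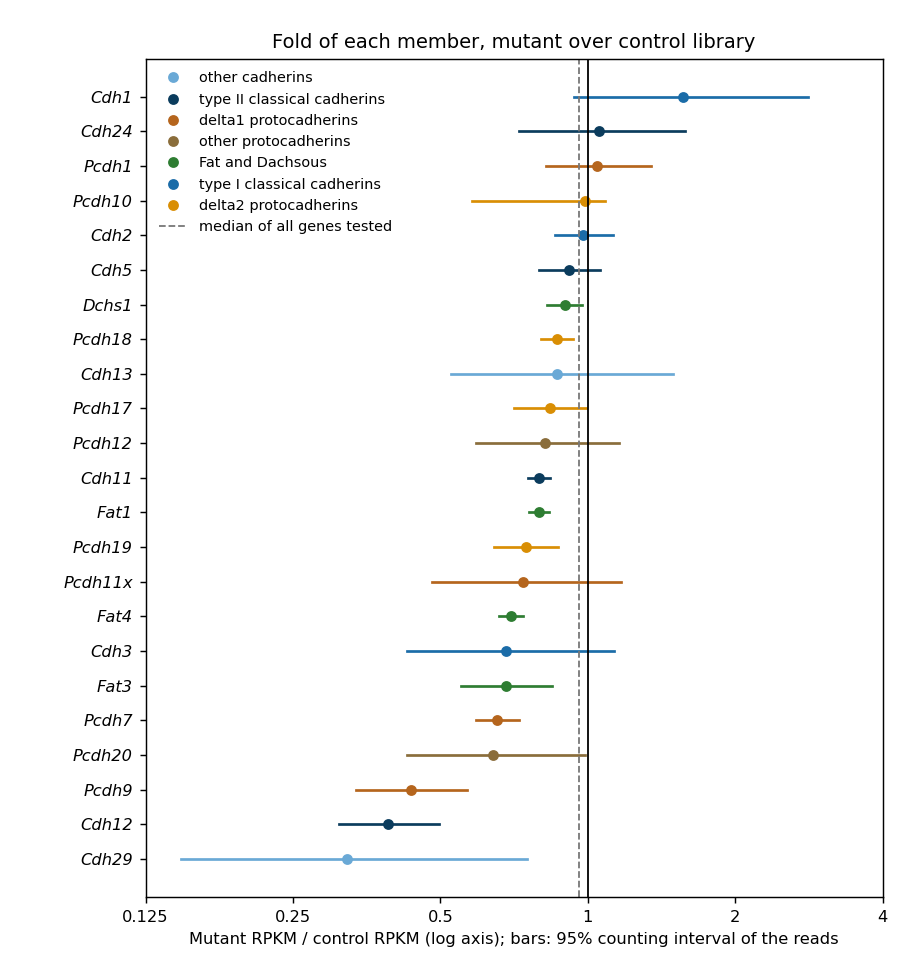
Mutant RPKM over control RPKM of the 23 tested members on a log axis, coloured by family, with the 95% counting interval of the reads as bars. The solid line is 1 and the dashed line the median of all genes tested (0.96); Cdh29, Cdh12 and Pcdh9 lie farthest left, and Cdh1, whose bar crosses 1, farthest right.

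Of the 4 delta1 protocadherins, Pcdh7 and Pcdh9 had an interval below 1 (background 15.9%), while those of Pcdh1 and Pcdh11x held 1. Pcdh7, on chromosome 5 from 58109260 to 58523479, was at 13.6 RPKM (12.4 to 14.9) in the control and 8.89 RPKM (8.51 to 9.28) in the mutant, 1.53-fold lower (1.38 to 1.69) as a plain ratio. Its log2 ratio on the RPKM + 1 scale was -0.56, short of the 1.5-fold limit. Its 2 transcript rows, of 5610 and 7741 bases, had like folds: the short one was at 6.81 and 4.44 RPKM and the long one at 6.81 and 4.45 RPKM. Pcdh9, on chromosome 14 from 93412920 to 94287951, was at 2.72 RPKM (2.16 to 3.39, about 81 reads) and 1.18 RPKM (1.03 to 1.35, about 224 reads). It was 2.30-fold lower (1.76 to 2.98), a log2 ratio of -0.77, and its levels did not overlap. Pcdh1 was at 3.70 and 3.87 RPKM, with a fold of 1.05 (0.82 to 1.35). Pcdh11x was at 1.09 and 0.80 RPKM, with a fold of 0.74 (0.48 to 1.17) on about 26 control reads, too few to show whether it differed. Over the 4 delta1 genes the summed level was 21.1 RPKM in the control pool against 14.7 RPKM in the mutant pool.

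Of the 4 tested delta2 protocadherins, Pcdh18, Pcdh19 and Pcdh17 had an interval below 1 (background 15.9%). Pcdh8, not tested, was at 0.067 and 0.0915 RPKM. Pcdh18, the second most abundant member, on chromosome 3 from 49547218 to 49561238, was at 30.1 RPKM (28.1 to 32.2) and 26.1 RPKM (25.3 to 26.8), 1.16-fold lower (1.07 to 1.24). Pcdh19, which acts together with N-cadherin in adhesion, was at 3.91 and 2.92 RPKM, 1.34-fold lower (1.15 to 1.56). Pcdh17 was at 3.24 and 2.71 RPKM, 1.20-fold lower (1.01 to 1.41), an interval that nearly reaches 1. Its locus overlaps that of 9630013A20Rik, at 0.336 and 0.075 RPKM. With 1 read taken as 100 bases, the intervals of Pcdh17, Pcdh20 and Cdh29 held 1. Pcdh10 was level in summed RPKM, at 1.32 and 1.30 RPKM, with a fold interval of its reads from 0.58 to 1.08. Its 4 transcript rows were not: the longest, of 8263 bases, held 72.9% of the sum in the control and 26.7% in the mutant. Such splits between transcripts are estimates of the authors' software and rest here on about 51 control reads. Pcdh20, a protocadherin outside these classes, was at 1.08 and 0.689 RPKM, 1.56-fold lower (1.01 to 2.34). The log2 ratio of Pcdh10, like that of Cdh2, changed sign on the TPM scale and after centring by length.

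Pcdh19 and Pcdh11x lie on the X chromosome, and the pools differed in the X-linked RNA Xist. Xist, made by the inactive X, measured 5.21 RPKM in the control pool against 30.0 RPKM in the mutant pool. Over 369 tested genes of the X chromosome the median was -0.10 on the log2 scale, against -0.05 for all genes tested. An interval below 1 was found for 19.5% of the X-linked genes (background 15.9%). The log2 ratio was -0.33 for Pcdh19 and -0.21 for Pcdh11x. The part of pool composition in these 2 values was not tested.

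All 4 tested Fat and Dachsous genes were lower in the mutant library, each with an interval below 1 (background 15.9%, or 26% of genes with a transcript of 10000 bases or more). With 1 read taken as 100 bases, the interval of Dchs1 held 1 and those of the other 3 stayed below it. Fat4, on chromosome 3 from 38785862 to 38910905, measured 18.6 RPKM in the control pool (17.7 to 19.5, about 1611 reads) against 12.96 RPKM in the mutant pool (12.7 to 13.3, about 7160 reads). It was 1.44-fold lower (1.36 to 1.52), a log2 ratio of -0.49. Its ligand Dchs1, on chromosome 7 from 112901503 to 112936064, was at 12.2 RPKM (11.3 to 13.1) and 10.9 RPKM (10.6 to 11.3), 1.12-fold lower (1.03 to 1.21). Receptor and ligand thus differed by unequal amounts, and the ratio of Fat4 to Dchs1 was 1.53 in the control pool and 1.19 in the mutant pool. Fat1, on chromosome 8 from 46035562 to 46137611, which acts in cell migration and actin organisation, was at 28.1 RPKM (26.9 to 29.3) and 22.3 RPKM (21.9 to 22.7). It was 1.26-fold lower (1.20 to 1.32). Fat3 was at 1.09 and 0.744 RPKM, 1.47-fold lower (1.18 to 1.81). It reached 1 RPKM only in the control library, so the filter set its direction. Fat2, not tested, was near 0.1 RPKM, at 0.0909 and 0.123 RPKM.

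Celsr genes were low throughout and none was tested. Celsr2 was at 0.882 and 0.738 RPKM, with a fold of 0.84 (0.62 to 1.15), and Celsr1 at 0.493 and 0.615 RPKM, with a fold of 1.25 (0.85 to 1.90). Celsr3 was at 0.0457 and 0.00229 RPKM, on fewer than 3 approximate reads in either pool. For Celsr1 and Celsr2 no difference was detectable at this depth.

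Cdh29 passed the 1.5-fold limit on few reads, and it reached 1 RPKM only in the control library, so the filter set its direction. It measured 1.33 RPKM in the control pool (0.647 to 2.41, about 10 reads) against 0.427 RPKM in the mutant pool (0.266 to 0.65, about 21 reads), 3.10-fold lower (1.33 to 6.79). The RefSeq table gives Cdh29 as an older name of Cdhr4, a cadherin-related gene, so it is not a numbered cadherin by current naming. Its locus overlaps those of 6230427J02Rik, at 3.00 and 2.85 RPKM, and of Uba7. The sources used here do not give whether counting used strand, so reads of overlapping genes cannot be told apart.

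The other 21 members stayed below 1 RPKM in both libraries. Cdh16, Cdh22 and Cdh26 were listed at 0 in both. Cdh6, Cdh8, Cdh15 and Cdh19 were listed at 0 only in the shallower control; Cdh15, M-cadherin of muscle, and Cdh19, known from glia, reached 0.0156 and 0.0107 RPKM among mutant reads, below the 0.196 and 0.183 RPKM that 3 control reads would give. The other 14 reached at most 0.882 RPKM in the control pool against 0.738 RPKM in the mutant pool. Among them Pcdh15, a tip-link protein of hair cells listed with 14 transcript rows, was at 0.564 and 0.341 RPKM, and the type I cadherin Cdh4, R-cadherin, at 0.344 and 0.142 RPKM on about 12 control reads. The counting intervals of both folds lay below 1, at 0.28 to 0.71 and 0.20 to 0.89, that of Pcdh15 from reads summed over its 14 rows. The interval of Celsr3 did so too, on fewer than 3 approximate reads in either pool. The share of such intervals among all genes below 1 RPKM was not computed, so these are not read as differences. All rows of the members listed at 0 had the status OK. No fold is given for these members, because a ratio to 0 is not defined.

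**Figure D3:**
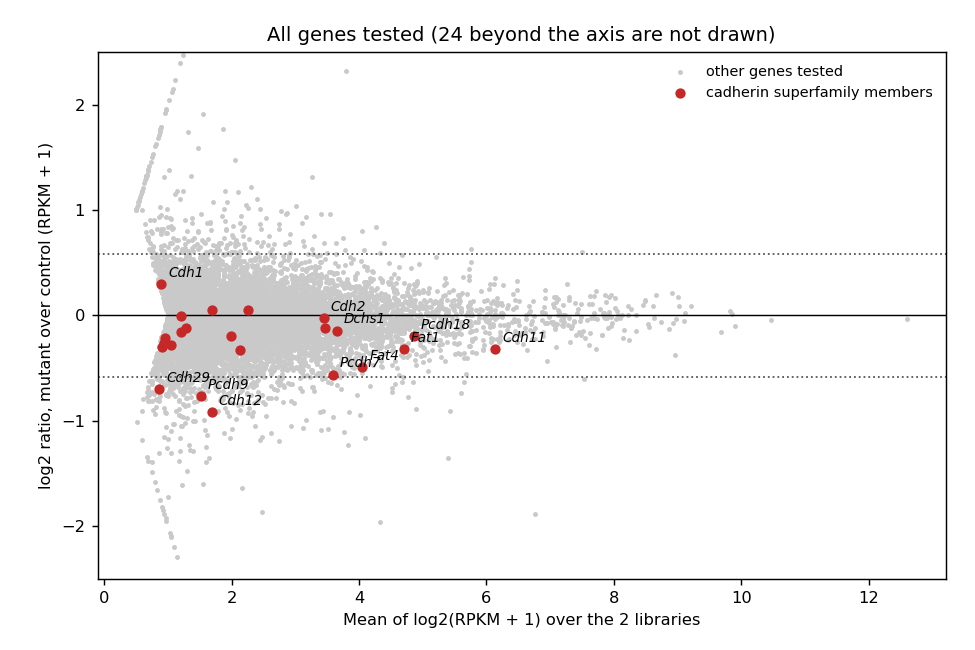
Log2 ratio of mutant over control (RPKM + 1) against mean log2 level for all genes tested (grey) and the members (red), with dotted lines at 1.5-fold. The abundant members Cdh11, Fat1, Fat4 and Pcdh7 lie below 0 and inside the 1.5-fold lines, and Cdh12, Pcdh9 and Cdh29 below them; 24 genes beyond the axis are not drawn.

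Members are long and often deeply covered, and both properties make a narrow interval more likely. They were therefore set beside genes above a floor of length and beside genes above a floor of reads. Neither set was matched to the members in depth, so these shares do not remove its effect. Among 1688 tested genes with a transcript of 5000 bases or more, the median log2 ratio was -0.04 and 21.1% had an interval below 1. Of the 13 members of that length, 11 had an interval below 1 and the median was -0.30. Of these 11, Fat3 and Pcdh20 reached 1 RPKM only in the control library, so the filter set their direction. Among 3009 genes with a mean of at least 100 reads at control depth, 21.5% had an interval below 1, as did 8 of the 10 members so covered, with medians of -0.04 and -0.26. All 10 lay below 0, as did 58.6% of those genes. Of these 10, Cdh2 and Cdh5 had intervals that hold 1.

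**Figure D4:**
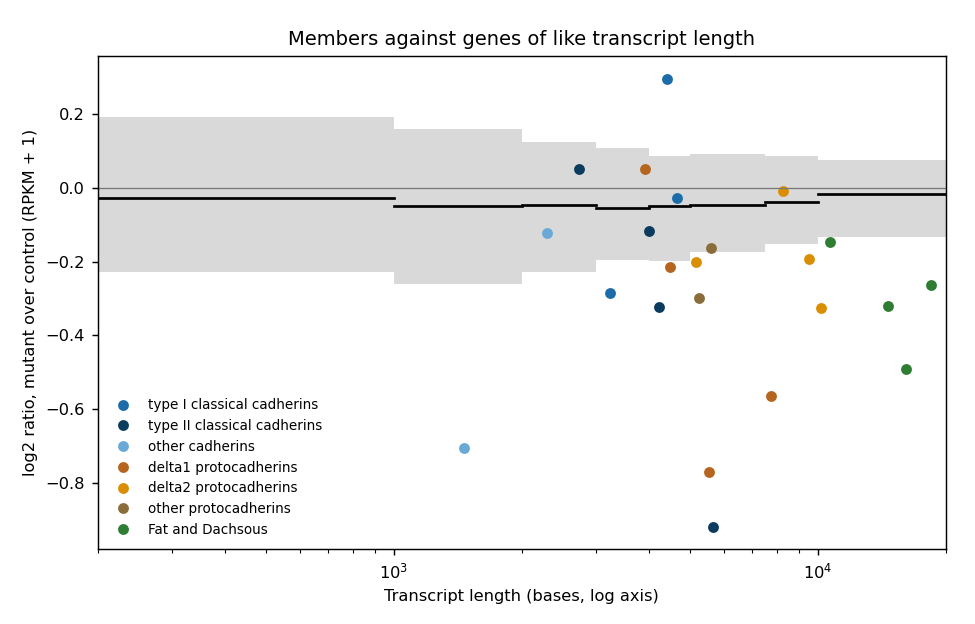
Log2 ratio of mutant over control (RPKM + 1) of the tested members (dots, by family) against transcript length on a log axis; black lines are the medians and grey bands the middle 50% of all tested genes in each length class. The medians of all genes lie between -0.06 and -0.02 from 200 bases upward, and the Fat genes, Pcdh7, Pcdh9 and Cdh12 lie below the bands.

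Catenins bind classical cadherins at the membrane. Of 14 catenin and p120 family genes, 7 were tested, none was 1.5-fold apart, and the median log2 ratio was 0.08. Ctnnb1, beta-catenin, was at 66.8 and 72.5 RPKM, with a fold of 1.09 (1.02 to 1.15), the only one with an interval above 1 (background 7.84%), and none lay below 1 (background 15.9%). Ctnnd1, p120-catenin, was at 13.9 and 14.9 RPKM, Ctnnal1 at 1.49 and 1.81 RPKM and Ctnnbip1, a beta-catenin inhibitor, at 2.84 and 2.35 RPKM.

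Planar cell polarity partners were mostly level, with Vangl2 as the exception past 1.5-fold on the RPKM + 1 scale. Of 17 tested, the median log2 ratio was 0.00, with 3 intervals below 1 (background 15.9%) and 1 above (background 7.84%), shares near those of all genes. Vangl2, a core membrane protein of the pathway, was at 6.82 and 3.54 RPKM, 1.93-fold lower (1.49 to 2.47). Prickle1, its cytoplasmic partner, was at 7.82 and 5.72 RPKM, 1.37-fold lower (1.15 to 1.61), and the Wnt5a receptor Ror2 at 4.86 and 3.59 RPKM, 1.35-fold lower (1.08 to 1.67). Fuz was at 0.494 RPKM on about 4.5 control reads and 1.11 RPKM in the mutant.

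Of 18 tested partners of Fat and Dachsous in the Hippo pathway, 5 had an interval below 1 (background 15.9%, or 21.5% of well-covered genes) and 1 above (7.84%). On the RPKM + 1 scale none was 1.5-fold apart and the median log2 ratio was -0.06. Frmd6 was at 12.1 and 7.96 RPKM, 1.51-fold lower as a plain ratio (1.33 to 1.72), Stk3, an upstream kinase, at 12.4 and 8.53 RPKM, and the coactivator Wwtr1 at 9.97 and 7.16 RPKM. Tead3 was at 1.94 and 3.06 RPKM, with a fold of 1.58 as a plain ratio (1.05 to 2.44). Fjx1, which modifies the Fat and Dachsous bond, was level at 2.33 and 2.34 RPKM. Of 21 tested proteases that cut cadherins and linkers to actin, 6 had an interval below 1 (background 15.9%, or 21.5% of well-covered genes) and none above (7.84%), with a median of -0.10. Ncstn, a gamma-secretase subunit, was at 8.69 and 5.85 RPKM, Adam9 at 2.29 and 1.39 RPKM, Adam15 at 2.13 and 1.37 RPKM and Wasf1 at 5.27 and 4.06 RPKM. Adam10, the main sheddase of E- and N-cadherin, was at 5.82 and 5.37 RPKM.

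**Figure D5:**
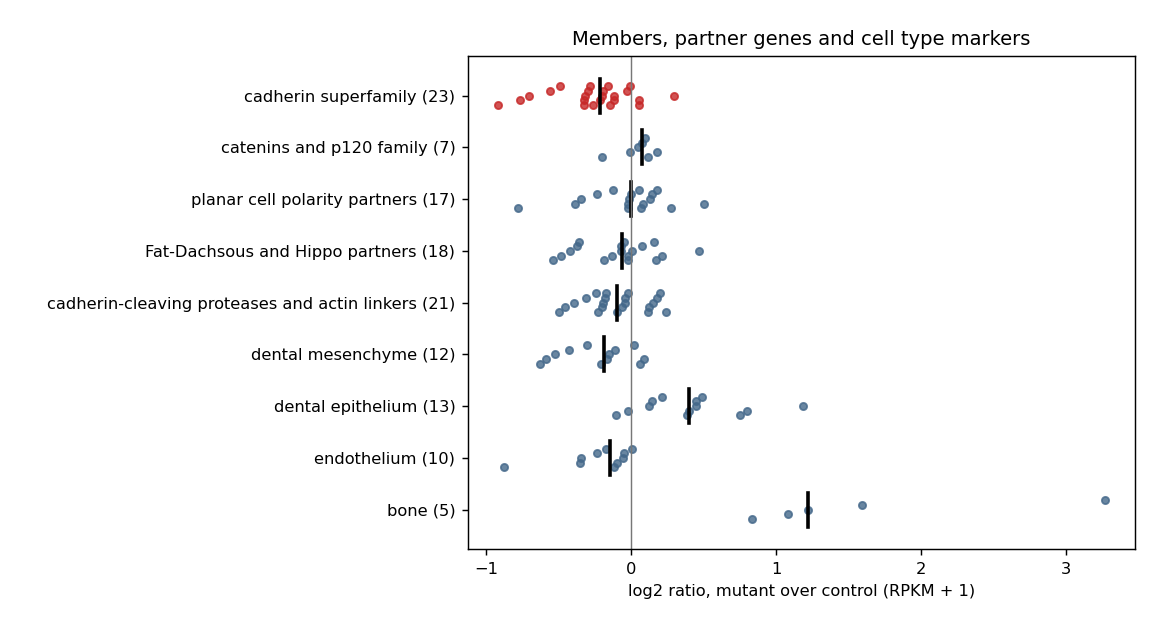
Log2 ratio of mutant over control (RPKM + 1) of each tested gene in the cadherin superfamily (red), the 4 partner lists and 4 marker lists (blue), with the number of genes in brackets and the median as a black bar. The superfamily median of -0.21 is near that of the dental mesenchyme markers (-0.19) and the catenin median at 0.08.

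The dental mesenchyme markers had a median close to that of the members. Of 12, 8 had an interval below 1 (background 15.9%, or 21.5% of well-covered genes) and none above (7.84%), with Pax9 at 61.7 and 39.4 RPKM and Pdgfra at 22.7 and 16.5 RPKM. Twist1 was level at 21.7 and 22.02 RPKM. The part of tissue composition in the lower cadherin levels was not tested.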

How the data were processed

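RNA of 1 control and 1 mutant pool was amplified with the NuGEN Ovation RNA-Seq v2 kit, per the labels' protocols. TopHat 1.4.1, Bowtie 0.12.7 and the build mm9 are named in the submitters' processing notes; the file names point to Cufflinks, with no version in the sources used here. The authors deposited RPKM per RefSeq transcript, used unscaled, and coverage (mean signal per base, not scaled for depth), per the file headers. Of 28107 rows, 54 marked FAIL or HIDATA were left out, and the rest were summed per symbol. Locus starts are given counted from 1.

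Coverage divided by RPKM was 0.238 for the control library against 1.52 for the mutant one, which gave the depth ratio. Approximate reads are coverage times length divided by 44.3 bases, the mean over libraries of the median product between 20 and 66 bases. These are estimates and no count model was fitted. Poisson intervals (levels) and Clopper-Pearson intervals (folds, scaled by depth) at 95% were computed with Python 3.11.15 and scipy 1.17.1. The fold intervals were tested on simulated independent Poisson reads, the model they assume. That test cannot show how well they cover amplified reads. For genes with several rows, such as Pcdh10, the interval is that of the reads, which need not centre on the RPKM ratio.

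The log2 ratio used a pseudocount of 1 RPKM, which understates differences of low genes, and 9779 genes with at least 1 RPKM in 1 library. Named were all tested members, those from 0.5 RPKM, and the 4 largest log2 ratios of each partner list; others were chosen after their values were seen. Members and lists were chosen with earlier results of these data known. Alternatives changed the pseudocount, filter, scale, row choice, status filter and read size; centring on genes of like length was added after seeing the data.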

Additional observations from a re-analysis of the deposited data

How the results depend on the processing

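No paired analysis was possible because each genotype has 1 library, and for that reason no library could be left out. The count of all genes at least 1.5-fold higher was 249 and became 556 with a pseudocount of 0.1 RPKM, 68 with a filter of 5 RPKM and 1705 on the TPM scale. On that scale the filter and the pseudocount were both 1 TPM, far below 1 RPKM. Lower genes were thus admitted, and the pseudocount shrank the ratios less. The count at least 1.5-fold lower was 349 and became 832, 107 and 1626 under the same settings, and 688 when each gene kept only its most abundant transcript. For the cadherin superfamily, the count 1.5-fold lower was 3 and became 5 on the TPM scale (33 members tested, with Cdh4 and Cdh9 added) and 0 with the filter of 5 RPKM, which leaves 8 members. The count 1.5-fold higher was 0 and became 2 on the TPM scale (Cdh1 and Cdh6). The median log2 ratio of the members was -0.21 and became -0.33 with the pseudocount of 0.1 RPKM and -0.12 without a filter. With the filter of 5 RPKM, 6 of the 8 members left had an interval below 1, as did 20.8% of all genes left, against 13 of 23 and 15.9% before. With 1 read taken as 100 bases, 9 of those 13 kept it; Cdh29, Dchs1, Pcdh17 and Pcdh20 did not, and the background became 6.35%. Cdh2 and Pcdh10 changed sign on the TPM scale and after centring by length; no other tested member did so under the 7 alternatives. The control depth limits what can be said of members under 1 RPKM.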
